A study of Mus musculus with 24 samples.

Results

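Ageing of the uninjured parietal cortex was described across all genes by comparing 6 intact C57Black/6 mice of 18 months with 6 intact mice of 3 months. The members were the 12 libraries labelled as controls of these ages, out of 24 libraries in the series. The other 12 came from mice of the same 2 ages, 6 of each, taken 3 days after a surgical stroke in which the middle cerebral artery was permanently occluded (MCAO), and served as a second setting for the same age difference. No genotype or drug separates the groups in the labels, the intact animals carried no occlusion, and the sex of the animals is not labelled. RNA was read as 3′-end counts, so a gene was measured near its poly(A) tail and its transcripts were not told apart.

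Several changes are well described in the ageing rodent brain. Microglia, the resident macrophages, can leave their surveying state for an activated one marked by lysosomal, lipid-handling and phagocytic genes, often called disease-associated because it was first defined around amyloid. Astrocytes become reactive and make more of the intermediate filament GFAP and of complement, while myelination goes on slowly through adult life. Neurons lower growth-related genes as the cortex matures, and the tumour suppressor locus Cdkn2a, which halts the cell cycle, is a common marker of aged tissue.

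The control libraries held 3.30 M to 6.98 M gene counts each (M, 1000000; median 5.49 M). Depth, the share of spike-in RNA and the share of reads outside genes did not separate the ages (exact permutation p = 0.641, 0.942 and 0.753, two-sided, n = 6 against 6, each adjusted p = 0.942). A principal component analysis of the 500 most variable genes placed all 6 young animals on one side of the first component, which held 24.3% of their variance, and all 6 aged animals on the other. Young animal D stood apart in choroid plexus markers, whose summed level was 790 counts per M gene counts (CPM) there against 5.73 to 13.8 in the other young animals and 9.25 to 19.5 in the aged. Striatal and hippocampal markers summed to 656 CPM in young C, against 313 to 380 in the other young animals. In the aged they summed to 519 in A and 481 in F, against 328 to 399 in the others. Fibroblast and meningeal markers summed to 294 CPM in aged A, against 494 to 638 in the other aged animals. Aged animal A differed most from its group. Its pairs with the other aged libraries had a chi-square, divided by its degrees of freedom, of 13.1 to 21.2, where all other pairs of control libraries of one age had 3.19 to 8.54, and it held the lowest aged value for 17 of the 37 lowered genes described below. Aged animal F was highest in erythrocyte markers (99.3 CPM against 31.1 to 59.9 in the other 11). Xist was read in every library, and Y-linked Ddx3y, Uty and Eif2s3y had 0 reads in all 12. Y-linked Kdm5d had 1 read in the young libraries together and 0 in the aged. Markers of microglia, astrocytes, oligodendrocytes and neurons were read in every library.

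At 18 months 51 genes were higher and 37 lower than at 3 months (edgeR quasi-likelihood adjusted p under 0.05 over 14599 genes tested), which is 0.349% and 0.253% of the genes tested and 0.603% for either direction. Among raised genes the 5 smallest p belonged to the reactive astrocyte filament Gfap, the complement gene C4b, the noncoding Gt(ROSA)26Sor, the microglial receptor Clec7a and the nodal matrix gene Hapln2. Among lowered genes the 4 smallest belonged to Nrep, Met and Sox4, genes of growing neurons, and to the matrix gene Abi3bp. The raised genes moved further, with 34 of 51 at or above 1 log2 unit against 12 of 37 lowered genes at or below -1. In 79 of the 88 the 6 aged and 6 young values did not overlap, a separation that 2.01% of all genes tested showed.

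**Figure D1:**
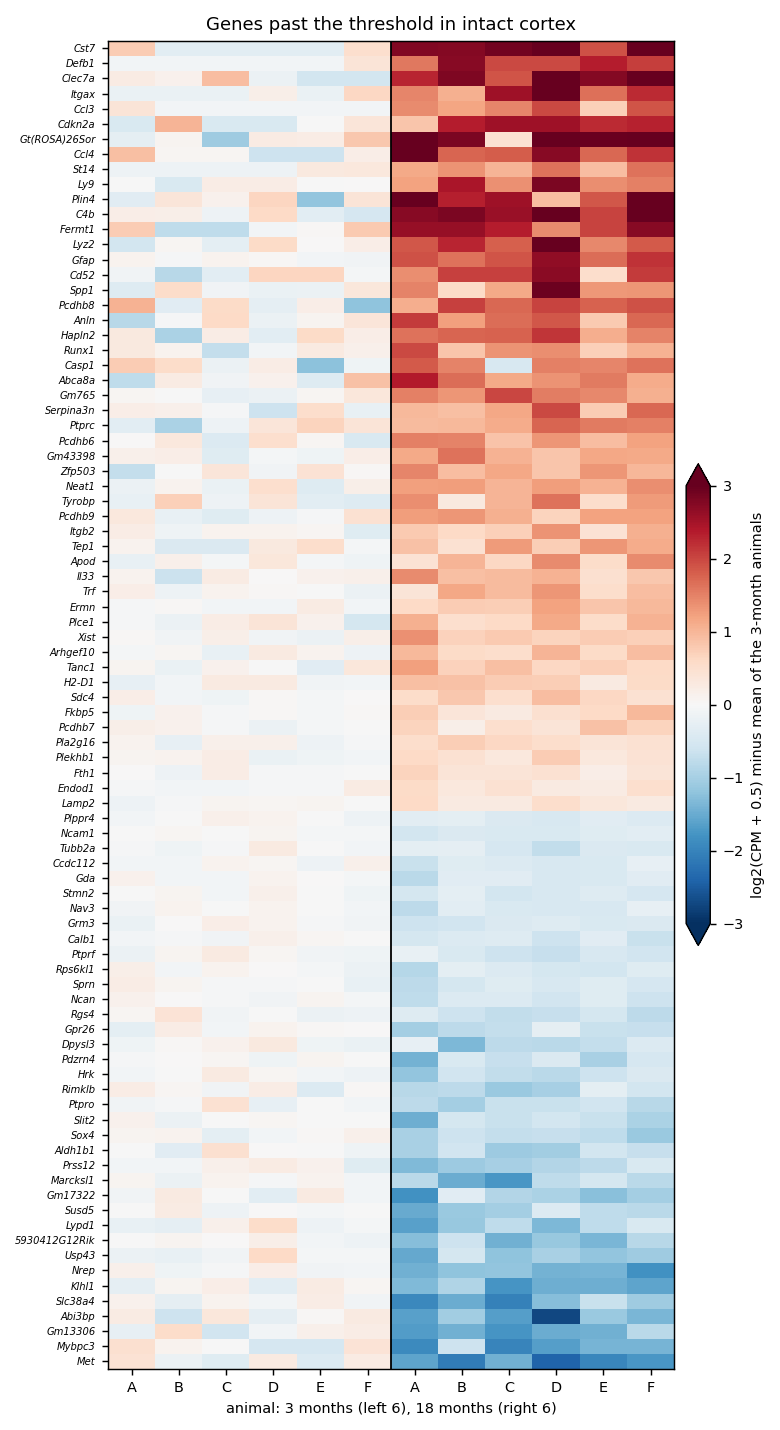
Each row is one of the 88 genes past the threshold in intact cortex, ordered by log2 change, and each column is an animal (3 months left, 18 months right). Colour is log2(CPM + 0.5) minus the mean of the 6 young animals, from -3 to 3; aged animal D holds the highest value among the aged for 24 of the 51 raised genes.

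Scaling to the spike-in RNA in place of the genes themselves gave 33 raised and 6 lowered genes, a share raised of 84.6% against 58.0%, and all 88 kept their direction while 50 of them no longer passed. With limma-voom 21 of the 88 did not pass. A fit to the 12 control libraries alone called 113 genes in each direction among 13317 tested (1.7%), and 76 of the 88 were among them, while 11 of the 88 fell under its count filter and 1, Itgb2, was tested and not called. Leaving out aged animal D gave 31 raised and 20 lowered genes, leaving out aged animal A gave 44 and 24, with 58 of the 88 among them, and leaving out MCAO animal A of 3 months gave 78 and 59. The 88 divide into 41 that belong to at least 1 of 47 gene lists and 47 that belong to none. The lists and their members were chosen with earlier results of these data known. Their counts of calls and medians below therefore describe the members and test nothing.

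Part of the genes of activated microglia rose. The list of disease-associated microglial genes had 8 of 24 tested members called higher and 0 lower by edgeR, against 11 called by DESeq2 and 3 by limma-voom (Cst7, Clec7a and Fth1), and all 24 had a positive log2 change with a median of 0.89, against 0.01 over all genes tested. Cst7, an inhibitor of lysosomal cathepsins, ranged from 0 to 0.552 CPM (median 0) in young animals and from 1.84 to 17.0 (median 3.95) in aged ones. The groups did not overlap, and aged animal D was well above the other 5. The difference was 5.06 ± 0.76 log2 units (SE, edgeR adjusted p = 0.000828).
Its RefSeq promoter is shown because Cst7 heads the list; the bases run from 250 before to 50 after the start, and capitals mark the letters of an AP-1 site.
Cst7, GRCm38.p6, chr2:150570165-150570464, plus strand: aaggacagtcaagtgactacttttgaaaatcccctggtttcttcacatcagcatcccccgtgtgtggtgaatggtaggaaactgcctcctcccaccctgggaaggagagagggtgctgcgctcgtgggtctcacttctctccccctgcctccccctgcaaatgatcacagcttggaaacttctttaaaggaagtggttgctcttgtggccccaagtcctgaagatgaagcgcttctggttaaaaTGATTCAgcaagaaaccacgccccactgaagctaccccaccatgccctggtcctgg
Clec7a, the beta-glucan receptor dectin-1, ranged from 0 to 0.899 CPM (median 0.225) at 3 months and from 2.22 to 15.7 (median 4.52) at 18 months. Its 2 groups did not overlap, again with aged animal D at the top, and it was higher by 4.58 ± 0.61 log2 (edgeR adjusted p = 0.000171). Itgax, which encodes the integrin CD11c, had 3 reads in the 6 young libraries together and 73 in the aged, a pooled ratio of 25.4 (95% counting interval 8.37 to 126).

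Cd52, a glycoprotein of leukocytes, ranged from 0.904 to 3.43 CPM (median 1.88) in the young and from 3.13 to 15.9 (median 9.88) in the aged, and the ranges touched slightly. Lyz2, lysozyme of myeloid cells, ranged from 2.39 to 5.82 CPM (median 3.85) and from 11.1 to 40.9 (median 14.8), without overlap. Spp1, the secreted protein osteopontin, ranged from 1.66 to 3.62 CPM (median 2.04) and from 3.70 to 21.0 (median 6.52), and its aged range barely cleared the young one. Tyrobp, the adaptor that carries the signal of TREM2, overlapped between groups at 3.25 to 7.54 CPM (median 3.79) and 5.55 to 14.7 (median 10.5), and the ferritin chain Fth1 lay at 1057 to 1384 and 1347 to 1866 CPM. The log2 changes were 1.98 for Cd52, 2.29 for Lyz2, 1.90 for Spp1, 1.15 for Tyrobp and 0.41 for Fth1 (edgeR adjusted p from 0.00886 to 0.0437). In 7 of the 8 called members the highest aged value was that of animal D. The summed level of the list was 2424 to 2794 CPM in young and 2787 to 3838 CPM in aged animals, much of it Fth1.

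With aged animal D left out 3 members of the list were called, as without young animal E, 4 without young animal A, B, C or D, and 5 without young F or aged A. Cst7, Clec7a and Cd52 passed in every fit that left out 1 library, while Spp1 missed the threshold in 17 of the 24, Lyz2 in 9, and Itgax and Tyrobp in 7 each, aged animal D among them. The receptor Trem2 lay at 3.59 to 5.67 CPM in the young and at 7.17 to 19.2 in the aged without overlap, and its adjusted p was 0.109 with all 24 libraries and 0.00991 in the fit to the controls alone.

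The resident markers gave 0 calls among 14 genes tested by edgeR, with none at an unadjusted p under 0.05 and 0 calls by DESeq2 and by limma-voom. Their median log2 change was 0.13 and their summed level was 354 to 411 CPM in young and 352 to 456 CPM in aged animals. Gpr34 and Sall1 had the smallest p (adjusted p = 0.576 and 0.666). P2ry12, the purinergic receptor of surveying microglia, averaged 16.3 ± 1.70 and 15.1 ± 4.05 CPM (SD, n = 6). In bulk RNA, fewer or more cells of a type cannot be told apart from less or more RNA per cell, here and in every list below.

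Most markers of blood-borne cells had few reads, and haemoglobins were higher in the aged libraries. Some had more reads, among them T-cell Trbc2 with 917 in all young and 648 in all aged libraries. B-cell Ighm had 600 and 519 and Itga4 264 and 163, while Lyz2 went the other way with 119 and 569. The T-cell, B-cell and neutrophil lists gave 0 calls by edgeR, DESeq2 or limma-voom. Of the monocyte and macrophage list 11 of 12 genes were tested and 1, Lyz2, was called. The summed level of that list was 18.8 to 30.8 CPM in young and 27.7 to 68.9 CPM in aged animals, with aged D at the top. Of the tested genes 7 had a positive and 4 a negative change, and Lyz2 gained the most reads. Cybb had 37 reads in all young and 110 in all aged libraries. Mrc1 had 147 and 127, Cd163 52 and 45, and Pf4 52 and 41. Ccr2 had 10 reads in all young libraries and 13 in all aged ones, Ly6c2 had 1 and 0, and Chil3 had 0 and 1. The T-cell receptor subunit genes Cd3e, Cd3d and Cd3g had 1, 0 and 0 reads in the young and 2 each in the aged. Neutrophil S100a8 had 7 and 44 reads, and its adjusted p was 0.414. Haemoglobin Hbb-bs had 52 reads in all young and 311 in all aged libraries, Hbb-bt 24 and 173, Hba-a1 14 and 64, and Hba-a2 8 and 42, while Bpgm, a red-cell enzyme that other cells also make, had 979 and 1029. All 5 tested erythrocyte genes had a positive change, with a median of 2.36, 2 at an unadjusted p under 0.05 and 0 called by edgeR, DESeq2 or limma-voom. Bpgm held most of the reads of these 5 genes at both ages, so their sum shows the haemoglobins poorly. Their summed level was 31.1 to 44.9 CPM in the young and 38.9 to 99.3 CPM in the aged. Like the called microglial, complement and chemokine genes, haemoglobins were higher at 18 months. The part of blood in those lists was not tested.

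**Figure D2:**
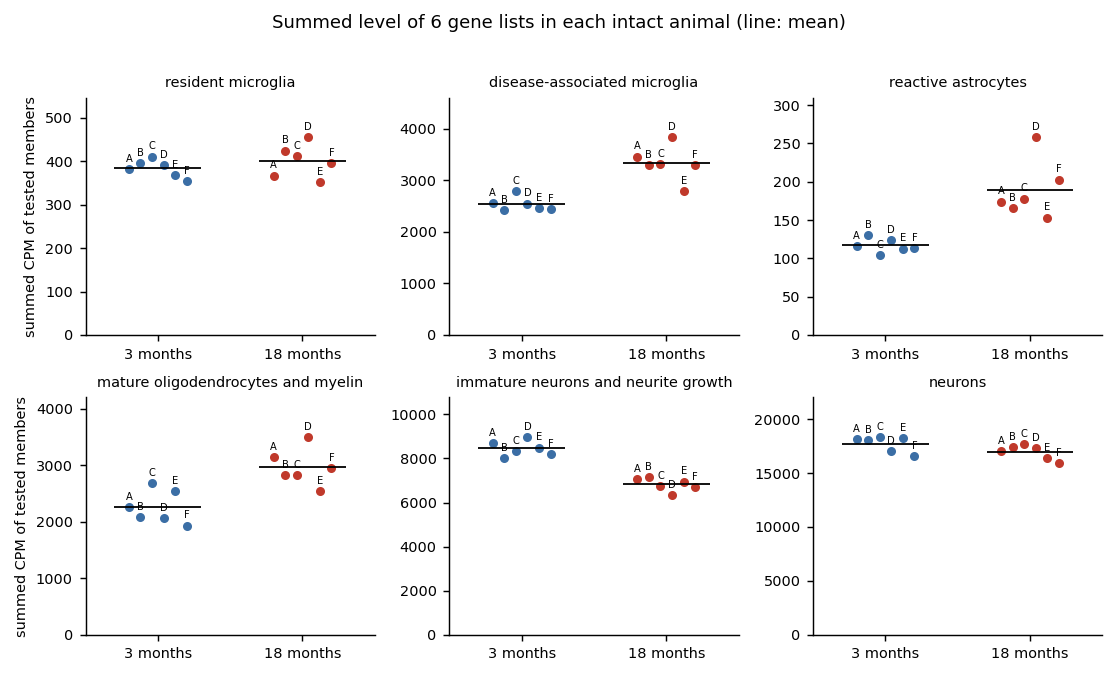
Summed CPM of the tested members of 6 lists in each intact animal, with letters for animals and a line at each group's mean. Disease-associated microglia, reactive astrocytes and immature neurons show groups close to or fully apart, whereas resident microglia (354 to 411 against 352 to 456 CPM) overlap widely. Much of the disease-associated sum is the abundant transcript Fth1.

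Complement and chemokine genes gave 5 calls, all higher. C4b, which encodes the complement component C4, lay at 4.40 to 9.99 CPM (median 6.46) in young and at 27.8 to 84.7 CPM (median 46.8) in aged animals. Its groups were far apart, and it rose by 3.04 ± 0.27 log2 units (edgeR adjusted p = 2.31e-07). C4a is a near-identical neighbour, and reads that fit both would be divided or dropped by the counting, so the split between them is uncertain. The integrin chain Itgb2, shared by the complement receptors CR3 and CR4, rose by 1.05 ± 0.24 (0.957 to 1.66 against 2.03 to 4.20 CPM, edgeR adjusted p = 0.0294), and C1qc lay at 14.4 to 27.6 and 23.6 to 45.8 CPM (adjusted p = 0.134). In all 2 of 15 complement genes were called, both higher, with a median of 0.78, and without aged D, aged F or any of young B to F it was 1, C4b. DESeq2 called 4 of the list and limma-voom 1.

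Among 17 chemokines and cytokines 3 were called, all higher, by edgeR in every fit that left out a control library, and 3 by DESeq2 and by limma-voom. The summed level of the list was 1189 to 1461 CPM in young and 1068 to 1355 CPM in aged animals, most of it Cx3cl1, the neuronal chemokine fractalkine, at 1169 ± 119 and 1030 ± 132 CPM (SD, n = 6, adjusted p = 0.879). The macrophage inflammatory proteins Ccl3 and Ccl4 are neighbours on chromosome 11 (Ccl3 at 83647844 to 83649355, Ccl4 at 83662584 to 83664683, GRCm38). Ccl3 had 1 read in the 6 young libraries and 28 in the aged, a ratio of 29.3 (95% counting interval 4.84 to 1197), and Ccl4 ranged from 0 to 0.920 CPM (median 0.301) and from 2.03 to 5.76 (median 2.57). Neither pair of groups overlapped, and Ccl4 rose by 3.36 ± 0.52 log2 (edgeR adjusted p = 0.000861). Il33, an alarmin of astrocytes and oligodendrocytes, lay at 13.6 to 25.8 CPM (median 23.5) in the young and at 30.4 to 58.3 CPM (median 41.5) in the aged, and rose by 0.94 ± 0.15 (edgeR adjusted p = 0.00091).

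Antigen presentation gave 1 call. The class I heavy chain H2-D1 lay at 38.5 to 55.6 CPM (median 43.5) in young and at 55.7 to 86.3 CPM (median 77.9) in aged animals, with the groups close but apart, and rose by 0.70 ± 0.16 (edgeR adjusted p = 0.0419), a call lost in 11 of the 24 fits without 1 library and with limma-voom (adjusted p = 0.0733). H2 genes are alike in sequence, so reads may be shared among them. H2-K1 and the light chain B2m had adjusted p of 0.0777 and 0.164, and 11 of 12 class I genes had a positive change with a median of 0.62. The 6 class II genes had 0 calls by edgeR, DESeq2 or limma-voom, 1 with an unadjusted p under 0.05, and the smallest p for H2-DMb1, Cd74 and H2-Aa. Interferon-response genes gave 0 calls of 24 tested by edgeR, by DESeq2 and by limma-voom, with 2 at an unadjusted p under 0.05 and a median of 0.38; Ifi27 and Lgals3bp had the smallest p. Without young animal D 1 interferon gene was called.

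Gfap, the intermediate filament of astrocytes, gave the smallest p of all genes in the comparison. It lay at 10.3 to 12.0 CPM (median 11.1) in the 6 young animals and at 35.4 to 73.1 CPM (median 43.0) in the 6 aged ones. The young values were tight, the lowest aged value was far above them, and aged D was highest. Gfap rose by 2.08 ± 0.15 log2 units (edgeR adjusted p = 2.75e-09).
The promoter is shown because the change of Gfap was the best resolved; capitals mark the letters of a STAT site that spans the start.
Gfap, GRCm38.p6, chr11:102897151-102897450, minus strand: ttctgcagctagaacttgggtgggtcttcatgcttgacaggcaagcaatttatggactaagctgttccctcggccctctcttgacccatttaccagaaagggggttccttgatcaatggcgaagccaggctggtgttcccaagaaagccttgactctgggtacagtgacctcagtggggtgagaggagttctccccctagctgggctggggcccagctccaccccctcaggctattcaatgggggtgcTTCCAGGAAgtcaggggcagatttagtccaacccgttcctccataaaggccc
Serpina3n, a protease inhibitor that reactive astrocytes secrete, lay at 1.04 to 2.89 CPM (median 1.95) and at 3.50 to 8.75 CPM (median 4.44), without overlap, and rose by 1.497 ± 0.26 (edgeR adjusted p = 0.0028). These were the 2 calls among 17 reactive astrocyte genes, in the fit with all libraries and in each fit that left out a control library. DESeq2 called 2 and limma-voom 1, Gfap. In all 16 of 17 changes were positive, with a median of 0.59, and Vim came next (adjusted p = 0.303).

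General astrocyte markers did not pass. Of 14 tested, 0 were called by edgeR, DESeq2 or limma-voom and 1 had an unadjusted p under 0.05, with a median change of 0.11. Glutamine synthetase (Glul), Aldoc and S100b had the smallest p, at adjusted p = 0.351, 0.601 and 0.695. Their summed level was 7030 to 7403 CPM in young and 7516 to 8759 CPM in aged animals, highest in aged A.

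**Figure D3:**
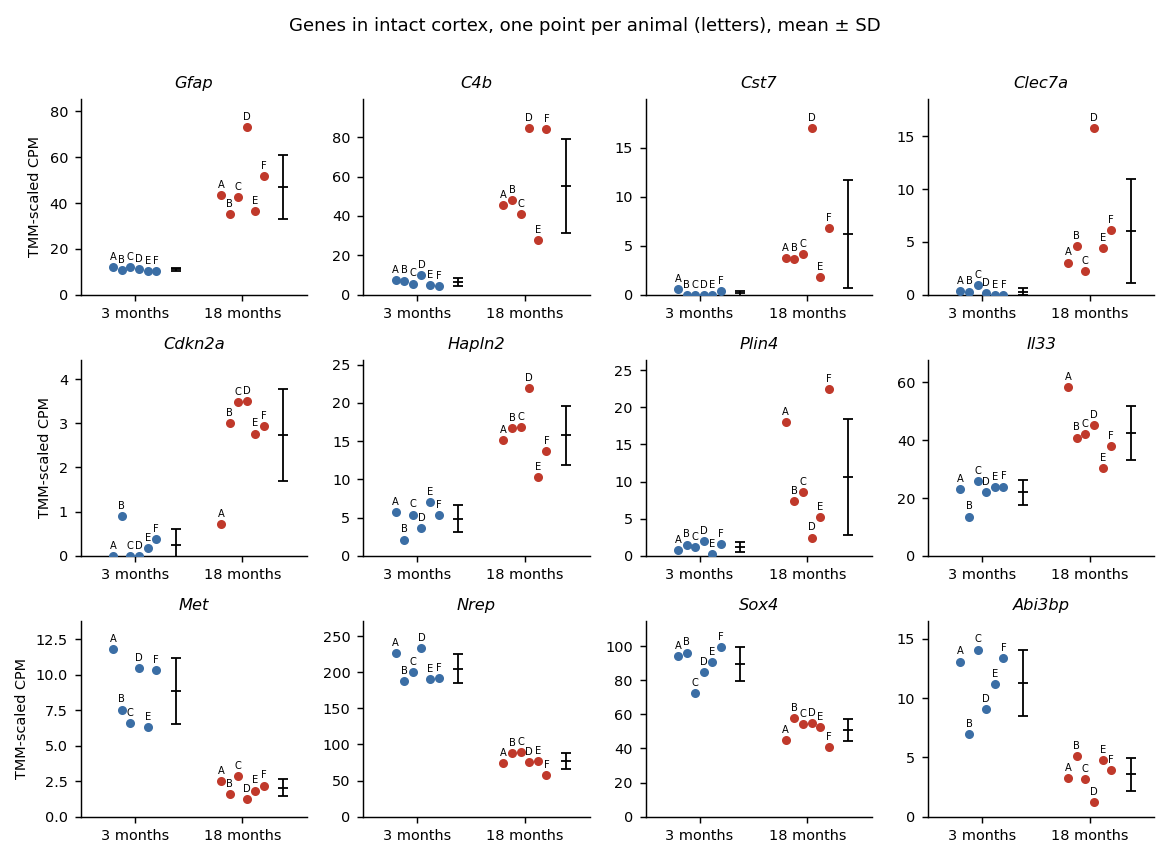
TMM-scaled CPM of 12 genes in each intact animal at 3 and 18 months, one panel a gene, with letters for animals and mean ± SD (n = 6) beside the points. Gfap spans 10.3 to 12.0 CPM at 3 months and 35.4 to 73.1 CPM at 18 months; animal D is highest at 18 months for Cst7 and Clec7a.

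Myelin and oligodendrocyte genes rose in part. Of 20 tested, 5 were called higher and 0 lower by edgeR (7 calls by DESeq2, 5 by limma-voom), 18 changes were positive and the median was 0.31. Hapln2, a link protein at nodes of Ranvier, lay at 2.11 to 7.03 CPM (median 5.37) in young and at 10.3 to 21.9 CPM (median 15.9) in aged animals and rose by 1.67 ± 0.23 log2 units (edgeR adjusted p = 0.000226). Anln, the actin-binding protein anillin that helps assemble myelin septin filaments, lay at 2.58 to 7.79 CPM (median 5.03) and at 8.85 to 23 (median 17.2), and rose by 1.67 ± 0.29 (edgeR adjusted p = 0.00224). Neither gene's groups overlapped.

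Ermn, a cytoskeletal protein of late myelination, lay at 25.4 to 32.3 CPM (median 25.8) and 41.0 to 63.0 (median 47.3), and Trf, the iron carrier transferrin, at 145 to 186 (median 165) and 213 to 409 (median 312). Plin4, a lipid droplet coat protein, lay at 0.180 to 1.94 CPM (median 1.35) and at 2.45 to 22.4 (median 7.97), with aged A and F high and aged D low. All 3 were without overlap, with log2 changes of 0.87 for Ermn, 0.91 for Trf and 3.15 for Plin4 (edgeR adjusted p = 0.00288, 0.0228 and 0.000799). The call of Trf was lost in 6 of the 24 fits without 1 library, among them the fit without aged D. Plin4 is also induced by glucocorticoids and overlaps Hdgfl2 on the opposite strand, which had 7791 reads in the controls against 328 for Plin4.

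Several other genes of the list did not pass with all libraries. The myelin basic protein gene Mbp lay at 629 to 923 CPM in young and 926 to 1210 CPM in aged animals (adjusted p = 0.224), Mobp at 115 to 219 and 213 to 291 (adjusted p = 0.058), and Aspa at 6.93 to 11.3 and 12.7 to 19.8 (adjusted p = 0.0702). In the fit to the controls alone these 3 passed, at adjusted p = 0.0155, 0.0368 and 0.00884. Oligodendrocyte precursor genes gave 0 calls of 16 tested by edgeR, 2 by DESeq2 and 0 by limma-voom, with 5 at an unadjusted p under 0.05. Of the changes 7 were positive and 9 negative, with a median of -0.02. The summed level of the list was 498 to 601 CPM in young and 614 to 714 CPM in aged animals. Gpr17, a receptor of cells about to differentiate, lay at 12.2 to 21.2 CPM in young and 5.70 to 12.8 in aged animals, and Bcas1, of newly forming myelinating cells, at 66.7 to 101 and 108 to 178. Their adjusted p were 0.106 and 0.0574 with all libraries and 0.00672 and 0.0027 in the controls alone, in opposite directions (-1.03 and 0.73 log2).

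Part of the genes of immature neurons and neurite growth fell. Of 23 tested, 7 were called lower and 0 higher by edgeR, with 8 calls by DESeq2 and 6 by limma-voom, 22 of 23 changes were negative and the median was -0.34. Met, the receptor for hepatocyte growth factor, which guides the growth of cortical projections, lay at 6.31 to 11.8 CPM (median 8.93) in young and at 1.22 to 2.85 CPM (median 2.02) in aged animals. The aged values were all far under the young ones, and Met fell by 2.14 ± 0.25 on the log2 scale (edgeR adjusted p = 1.67e-05), the largest fall among the 88. Nrep, a neuronal regeneration related protein, lay at 188 to 233 CPM (median 196) and at 57.6 to 89.3 (median 76.5), and fell by 1.42 ± 0.16 (edgeR adjusted p = 1.19e-05).

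Sox4, a transcription factor of neuronal progenitors and young neurons, lay at 72.5 to 99.5 CPM (median 92.3) and at 40.7 to 57.8 CPM (median 53.6), and fell by 0.82 ± 0.13 (edgeR adjusted p = 0.000799). Marcksl1, a membrane-bound actin regulator, lay at 12.4 to 15 CPM (median 14.2) and 3.80 to 9.58 (median 7.77), and Dpysl3, a collapsin response mediator of growth cones, at 38.6 to 54.7 (median 42.8) and 17.1 to 37.1 (median 26.3). Stmn2, a microtubule destabiliser of growth cones, lay at 527 to 648 CPM (median 575) and 398 to 473 (median 412), and the tubulin Tubb2a at 552 to 731 (median 589) and 360 to 502 (median 444). The 6 aged values lay under the 6 young values in all 5 genes, with log2 changes of -0.99, -0.70, -0.46 and -0.44 for Marcksl1, Dpysl3, Stmn2 and Tubb2a (edgeR adjusted p from 0.00775 to 0.0338). Tubb2a has a close paralog, Tubb2b, with which reads could be shared.

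Without young animal D 4 of the list were called, and with spike-in scaling 2, Met and Nrep. Calls were lost for Marcksl1 in 7 and for Dpysl3 in 8 of the 24 fits without 1 library, and for Met, Nrep, Sox4 and Stmn2 in none. Dcx, the doublecortin of migrating neurons, Marcks and Tuba1a passed in the fit to the controls alone and not with all libraries (adjusted p = 0.0331, 0.0101 and 0.0323, against 0.263, 0.106 and 0.0966 with all libraries).

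**Figure D4:**
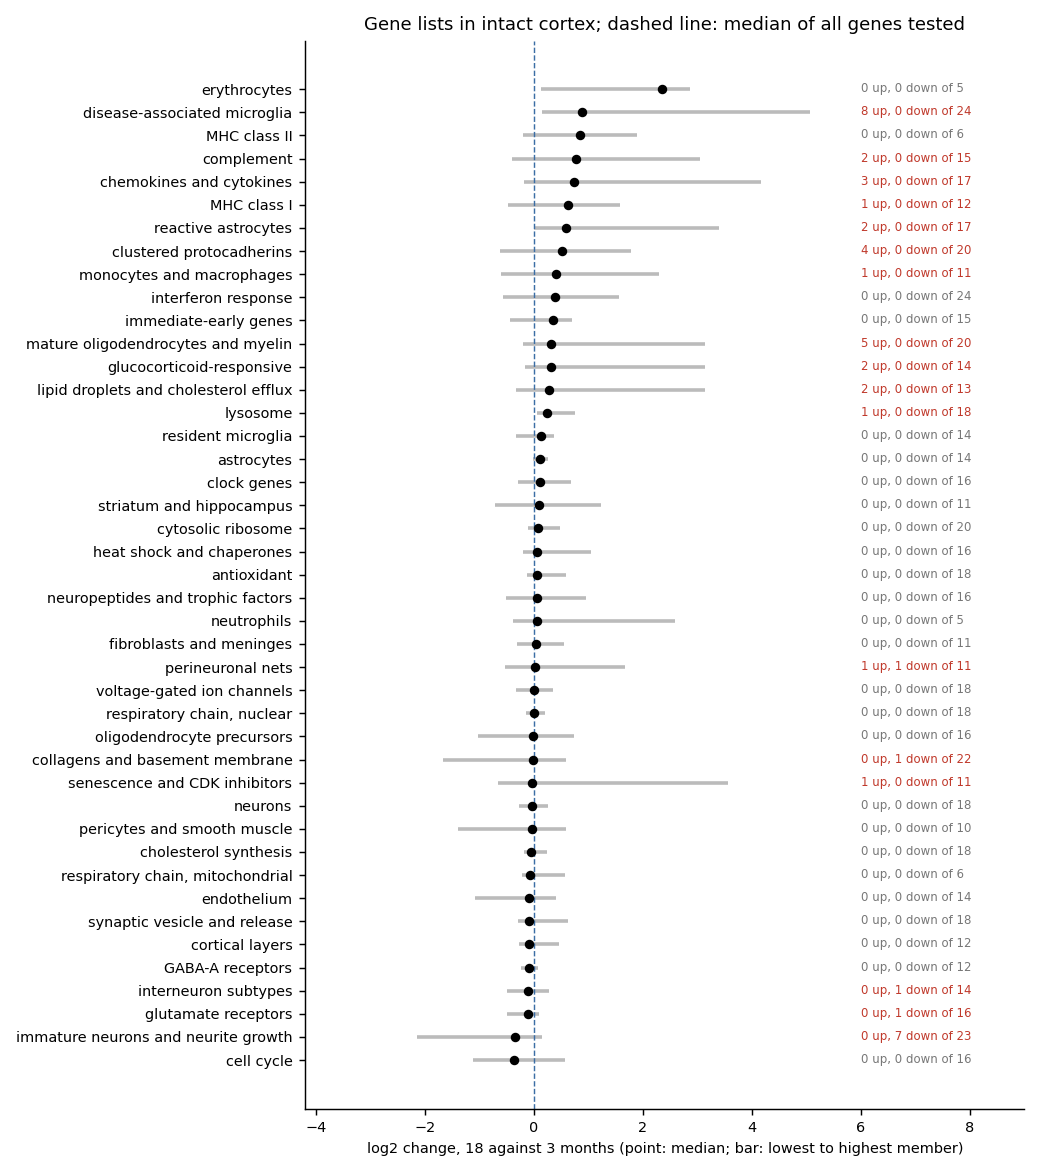
Median (point) and range (bar) of the log2 change from 3 to 18 months in each list with at least 5 tested members, with the number called. The lists were chosen with earlier results of these data known. The dashed line is the median of all genes tested, 0.01; the disease-associated microglial list has 8 of 24 called higher and the immature neuron list 7 of 23 called lower.

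Markers of mature neurons did not pass. Of 18 tested, 0 were called by edgeR, DESeq2 or limma-voom, none had an unadjusted p under 0.05, and the median was -0.03; Thy1, Nefh and Rbfox3 had the smallest p. Their summed level was 16570 to 18349 CPM in young and 15902 to 17704 CPM in aged animals. Genes of the synaptic vesicle (0 of 18), GABA-A receptors (0 of 12), voltage-gated channels (0 of 18) and cortical layers (0 of 12) gave no call by any of the 3 tools. At an unadjusted p under 0.05 there were 3, 0, 1 and 0 of them, with Syt2, Gabrg3, Scn2a and Etv1 at the smallest p.

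Calb1 was called among 14 interneuron subtype genes. It encodes calbindin, a calcium buffer of some interneurons and of upper-layer pyramidal cells, lay at 150 to 180 CPM (median 159) in young and 102 to 127 CPM (median 117) in aged animals, and fell by 0.49 ± 0.10 (edgeR adjusted p = 0.0165), a call lost without young D, aged D or aged F. Sst and Vip came next (adjusted p = 0.613 and 0.797). Grm3, a metabotropic glutamate receptor of neurons and astrocytes, was the call among 16 glutamate receptor genes. It lay at 57.4 to 75.2 CPM (median 65.8) and at 42.8 to 50.2 (median 48.3), and fell by 0.49 ± 0.11 (edgeR adjusted p = 0.0393). That call was lost in 12 of the 24 fits without 1 library, aged D among them. Grin3a and Grm2 came next. Of the 16 changes 13 were negative and 3 positive, with a median of -0.11 and 5 at an unadjusted p under 0.05. The summed level of the list was 5886 to 6479 CPM in young and 4907 to 5857 CPM in aged animals.

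In the extracellular matrix the changes went both ways. Abi3bp, a secreted matrix protein, lay at 6.93 to 14.1 CPM (median 12.1) in young and 1.22 to 5.09 CPM (median 3.57) in aged animals, and fell by 1.67 ± 0.26 (edgeR adjusted p = 0.000799). It was the call among 22 collagen and basement membrane genes, ahead of Sparc and Lamb1 (adjusted p = 0.316 and 0.439). Ncan, neurocan, a proteoglycan of perineuronal nets, lay at 461 to 539 CPM (median 490) and 290 to 386 (median 351), and fell by 0.52 ± 0.12 (edgeR adjusted p = 0.0273), a call lost in 7 of the 24 fits without 1 library, aged D among them. With Hapln2, higher as given above, Ncan made up the calls among 11 perineuronal net genes. Neither Abi3bp nor Ncan had groups that overlapped. Endothelial genes gave 0 calls of 14 and pericyte and smooth muscle genes 0 of 10 by edgeR, DESeq2 and limma-voom, with 4 of each at an unadjusted p under 0.05.

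Clustered protocadherins, homophilic adhesion molecules that give single neurons an identity, rose in a run of neighbours. The genes Pcdhb6, Pcdhb7, Pcdhb8 and Pcdhb9 lie on chromosome 18 between 37333921 and 37403909 (GRCm38) and were the 4 calls of 20 tested, all higher, with 17 of 20 positive and a median of 0.51. Pcdhb8 lay at 0.765 to 5.52 CPM (median 2.41) in young and 5.76 to 11.6 CPM (median 10.04) in aged animals and rose by 1.79 ± 0.35 (edgeR adjusted p = 0.00806). Pcdhb9 lay at 8.09 to 14.7 CPM (median 9.84) and 17.1 to 27.0 (median 25.1), Pcdhb6 at 1.72 to 3.88 (median 2.64) and 5.07 to 8.27 (median 6.88), and Pcdhb7 at 20.4 to 26.1 (median 22.8) and 26.4 to 43.3 (median 35.0).

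None of these 4 had overlapping groups, with log2 changes of 1.13, 1.32 and 0.57 for Pcdhb9, Pcdhb6 and Pcdhb7 (edgeR adjusted p = 0.00193, 0.00399 and 0.0321). The genes are similar in sequence and the counts could be divided among them, and Pcdhb7 was lost in 9 of the 24 fits without 1 library. Pcdhb22, at the far end of the cluster, went the other way without passing (12.5 ± 1.67 to 8 ± 2.39 CPM, SD, n = 6, adjusted p = 0.173).

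Cdkn2a was the call among 11 genes of senescence and cyclin-dependent kinase inhibition. It lay at 0 to 0.904 CPM (median 0.0902) in young and at 0.719 to 3.50 CPM (median 2.97) in aged animals, with aged A low enough to overlap and the other 5 aged values above all young ones. It rose by 3.57 ± 0.58 log2 units (edgeR adjusted p = 0.00139), in every fit that left out 1 library. Cdkn1c and Cdkn2d came next (adjusted p = 0.480 and 0.662), and Cdkn1a, which encodes p21, averaged 17.7 ± 3.40 and 19.8 ± 6.21 CPM (SD, n = 6, adjusted p = 0.944).
The locus makes p19Arf from its upstream start and p16Ink4a from its downstream start, 2 proteins whose transcripts share a 3′ end, so these counts give their sum. Both promoters are shown for that reason, and capitals mark the letters of a PU.1 site, found before the downstream start.
Cdkn2a upstream start, GRCm38.p6, chr4:89294570-89294869, minus strand: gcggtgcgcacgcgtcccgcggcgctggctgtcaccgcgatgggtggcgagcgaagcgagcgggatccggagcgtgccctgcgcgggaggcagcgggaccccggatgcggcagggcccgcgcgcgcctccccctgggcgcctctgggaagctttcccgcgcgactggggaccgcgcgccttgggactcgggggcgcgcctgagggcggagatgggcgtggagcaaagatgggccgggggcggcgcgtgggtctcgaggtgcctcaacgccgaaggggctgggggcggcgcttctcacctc
Cdkn2a downstream start, GRCm38.p6, chr4:89282143-89282442, minus strand: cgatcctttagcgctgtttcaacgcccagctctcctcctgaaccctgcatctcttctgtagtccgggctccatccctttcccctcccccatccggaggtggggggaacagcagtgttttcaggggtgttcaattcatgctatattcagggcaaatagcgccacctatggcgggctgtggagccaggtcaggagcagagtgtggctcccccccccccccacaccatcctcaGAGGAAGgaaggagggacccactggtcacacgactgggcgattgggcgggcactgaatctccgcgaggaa

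Those promoters were searched on both strands, with overlaps allowed, for 5 sets of letters. They were GAGGAAG (PU.1), TTCNNNGAA (STAT), TGANTCA (AP-1), GAAANNGAA (interferon response element) and CACGTG (E-box). RefSeq promoters were found for 56 of the 88 genes. The PU.1 letters were in 9 of 40 promoters of raised genes (22.5%), in 4 of 33 of lowered genes (12.1%) and in 13.6% of all 32851. The STAT letters were in 1 of 40 and 0 of 33 against 8.3% of all, the AP-1 letters in 2 and 4 against 7.81%, the interferon letters in 2 and 1 against 8.56%, and the E-box in 5 and 2 against 7.15%. In the raised members of the microglial, complement, chemokine and monocyte lists the PU.1 letters were in 2 of 12 promoters (16.7%). These are counts of letters and were not tested.

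Lipid and lysosome genes gave few calls. Apod, a lipocalin that binds lipids and rises with age in many brain regions, lay at 46.0 to 67.9 CPM (median 51.2) in young and 72.8 to 145 CPM (median 96.6) in aged animals and rose by 0.96 ± 0.20 (edgeR adjusted p = 0.0165), a call lost without young A, aged D or aged F. With Plin4 it made up the 2 calls of 13 genes of lipid droplets and cholesterol efflux, with Plin3 next (adjusted p = 0.255). Lamp2, a lysosomal membrane protein, lay at 75.4 to 88.9 CPM (median 85.4) and 101 to 127 (median 104), and rose by 0.39 ± 0.08 (edgeR adjusted p = 0.0228), a call lost without young A, young B, aged A or aged D. All 18 lysosomal genes had a positive change, with a median of 0.25, and the cathepsin Ctss came next (53.4 to 73.4 against 82.8 to 156 CPM, adjusted p = 0.063).

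Fkbp5, a co-chaperone of the glucocorticoid receptor and one of its targets, lay at 23 to 27.7 CPM (median 25.2) in young and 30.4 to 50.01 CPM (median 37.0) in aged animals, and rose by 0.61 ± 0.14 (edgeR adjusted p = 0.0405), a call lost in 11 of the 24 fits without 1 library. With Plin4 it made up the calls among 14 glucocorticoid-responsive genes, with Tsc22d3 next (adjusted p = 0.142). Immediate-early genes gave 0 calls of 15 and cell cycle genes 0 of 16 by all 3 tools, with 1 and 2 at an unadjusted p under 0.05 and medians of 0.35 and -0.36. Nuclear (0 of 18) and mitochondrial (0 of 6) respiratory chain genes, cytosolic ribosome (0 of 20), heat shock (0 of 16), antioxidant (0 of 18) and cholesterol synthesis genes (0 of 18) also gave none by any of the 3. In these 6 lists 1, 0, 1, 3, 0 and 0 genes had an unadjusted p under 0.05.

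Several noncoding and long transcripts were among the raised genes. Xist, the RNA that coats the inactive X chromosome, lay at 474 to 608 CPM (median 524) in young and 857 to 1387 CPM (median 897) in aged animals, apart in all 12 and highest in aged A, and rose by 0.85 ± 0.14 (edgeR adjusted p = 0.00168). Neat1, the scaffold RNA of nuclear paraspeckles, lay at 65.3 to 121 CPM (median 83.3) and 174 to 225 (median 203), and rose by 1.18 ± 0.21 (edgeR adjusted p = 0.0027). Gt(ROSA)26Sor, the noncoding transcript of the Rosa26 locus, lay at 0 to 1.34 CPM (median 0.662) and 0.950 to 10.8 (median 8.28), with aged C inside the young range. It rose by 3.46 ± 0.44 (edgeR adjusted p = 6.97e-05), and it overlaps Thumpd3 on the opposite strand, so without a stated strand setting their reads cannot be told apart.

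The called genes outside every list were grouped by known role after their values were seen. Of leukocyte genes, the phosphatase Ptprc (CD45) lay at 0.301 to 1.98 CPM in young and 2.52 to 4.72 CPM in aged animals, the inflammasome protease Casp1 at 0.180 to 2.21 and 0.633 to 5.22, the transcription factor Runx1 at 0.300 to 1.10 and 1.66 to 4.68, and the SLAM-family receptor Ly9 at 0 to 0.300 and 1.08 to 4.37. Casp1 overlapped, through aged C, and the other 3 did not; their log2 changes were 1.48, 1.61, 1.62 and 3.28 (edgeR adjusted p = 0.0274, 0.0405, 0.0103 and 0.00224). Ptprc was lost in 7 and Casp1 in 11 of the 24 fits without 1 library, aged D among them for both. The defensin Defb1 had 1 read in all young and 52 in all aged libraries (ratio 54.4, 95% counting interval 9.34 to 2188), and the membrane serine protease St14 had 2 and 25 (ratio 13.1, 3.26 to 114).

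Other raised genes included the ABC transporter Abca8a at 4.23 to 14.2 and 16.8 to 41.4 CPM, the integrin activator Fermt1 at 0 to 0.957 and 1.75 to 5.12, the heparan sulfate proteoglycan Sdc4 at 26.7 to 33.7 and 40.5 to 55.6, and the postsynaptic scaffold Tanc1 at 19.8 to 32.3 and 38.5 to 59.7. Groups did not overlap in these 4, which rose by 1.58, 2.96, 0.66 and 0.80 log2 units (edgeR adjusted p = 0.00474, 0.00258, 0.0118 and 0.00231).

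Lowered genes outside the lists had varied roles. The guidance cue Slit2 lay at 73.9 to 91.3 CPM (median 83.6) in young and 29.9 to 58.3 CPM (median 52.5) in aged animals, and fell by 0.78 ± 0.14 (edgeR adjusted p = 0.0029). Ncam1, the neural cell adhesion molecule, lay at 356 to 395 CPM (median 371) and 257 to 302 (median 275), and fell by 0.42 ± 0.08 (edgeR adjusted p = 0.00298). Both were apart in all 12 animals and passed in every fit that left out 1 library, and neither passed with spike-in scaling (edgeR adjusted p = 0.347 for Slit2 and 1 for Ncam1).

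Klhl1, an actin-binding neuronal protein, lay at 9.54 to 14.4 CPM (median 12.6) and 3.17 to 6.24 (median 4.04), Prss12, the synaptic protease neurotrypsin, at 22.2 to 34.4 (median 29.4) and 11.2 to 21.0 (median 14.9), and Lypd1, a modulator of nicotinic receptors, at 39.8 to 70.7 (median 44.2) and 15.1 to 34.9 (median 24.6). The receptor phosphatase Ptpro lay at 17.7 to 29.1 CPM (median 20.2) and 10.2 to 13.8 (median 12.5), the mitochondrial dehydrogenase Aldh1b1 at 22.9 to 40.7 (median 28.5) and 13.3 to 19.7 (median 16.2), and Susd5 at 4.49 to 6.03 (median 4.97) and 1.44 to 3.67 (median 2.45). None of these 6 overlapped between ages, with log2 changes of -1.49, -0.93, -1.02, -0.78, -0.84 and -1.01 in that order (edgeR adjusted p from 0.0019 to 0.0182). The G-protein regulator Rgs4, an abundant transcript, lay at 630 to 944 CPM (median 684) and 416 to 545 (median 454), and fell by 0.63 ± 0.14 (edgeR adjusted p = 0.0305). Its call was lost in 7 of the 24 fits without 1 library, that without aged D among them.

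The age difference was also read in separate animals 3 days after MCAO. Of the 51 genes raised in intact cortex, 41 (80.4%) were called higher at 18 months there, where 6.4% of all genes tested were; of the 37 lowered genes, 18 (48.6%) were called lower, where 4.51% of all genes were. Scaled to the spike-in RNA, 646 genes were called higher and 25 lower after MCAO, against 934 and 659 with gene-based scaling, and 951 in all were called without aged MCAO animal C and 1038 without aged MCAO animal E, against 1593. The shared genes make up 4.39% of the genes called higher and 2.73% of those called lower after MCAO. None of the 88 was called in the opposite direction, and 81 had the same sign in both settings, against 60.9% of all genes tested. The median change of the raised genes was 1.48 in intact cortex and 1.00 after MCAO, and that of the lowered genes -0.76 and -0.39. The 88 genes were chosen by the intact difference in the fit to all 24 libraries, so the libraries after MCAO entered that choice through the shared spread and the count filter. That choice also favours genes whose intact change was measured large, so their smaller medians after MCAO cannot be read as a weaker age effect.

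Nrep was called lower at 18 months in both settings. It averaged 205 ± 19.8 and 77.0 ± 11.4 CPM in intact animals of 3 and 18 months, and 138 ± 37.3 and 64.8 ± 16.2 CPM after MCAO (SD, n = 6), with an interaction of 0.32 ± 0.23 log2 units (edgeR adjusted p = 0.653). C4b averaged 93.7 ± 32.6 CPM in young and 234 ± 23.1 CPM in aged animals after MCAO, an age difference of 1.32 ± 0.23 against 3.04 ± 0.27 in intact cortex, and the difference between them did not pass (edgeR adjusted p = 0.0506). Gt(ROSA)26Sor averaged 0.290 ± 0.285 and 10.1 ± 2.36 CPM after MCAO (edgeR adjusted p = 4.41e-07). H2-D1 averaged 124 ± 12.6 and 412 ± 148 CPM after MCAO, with an interaction of 1.04 ± 0.23 (edgeR adjusted p = 0.0683).

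In 3 of the 88 the age difference itself differed between the settings, where 0.0822% of all genes tested (12) did. The interaction contains the intact difference by which the 88 were chosen, so the larger share among them is no separate result. Gfap averaged 249 ± 35.1 CPM in young and 285 ± 37.3 CPM in aged animals after MCAO, a log2 difference of 0.19 ± 0.13 against 2.08 ± 0.15 in intact cortex (interaction -1.89 ± 0.20, edgeR adjusted p = 1.04e-05). Ccl3 averaged 5.48 ± 1.49 and 6.75 ± 1.05 CPM after MCAO, close to each other and far above the intact values (edgeR adjusted p of the interaction = 0.0271). The predicted gene Gm43398 lay at 2.70 to 4.22 CPM (median 3.74) and 6.82 to 12.3 CPM (median 8.50) in intact cortex and averaged 2.68 ± 0.432 and 2.29 ± 0.717 CPM after MCAO (edgeR adjusted p of the interaction = 0.0452). Leaving out single libraries gave 1 to 68 interaction calls, with the lowest count without young intact animal D and the highest without MCAO animal F of 3 months.

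**Figure D5:**
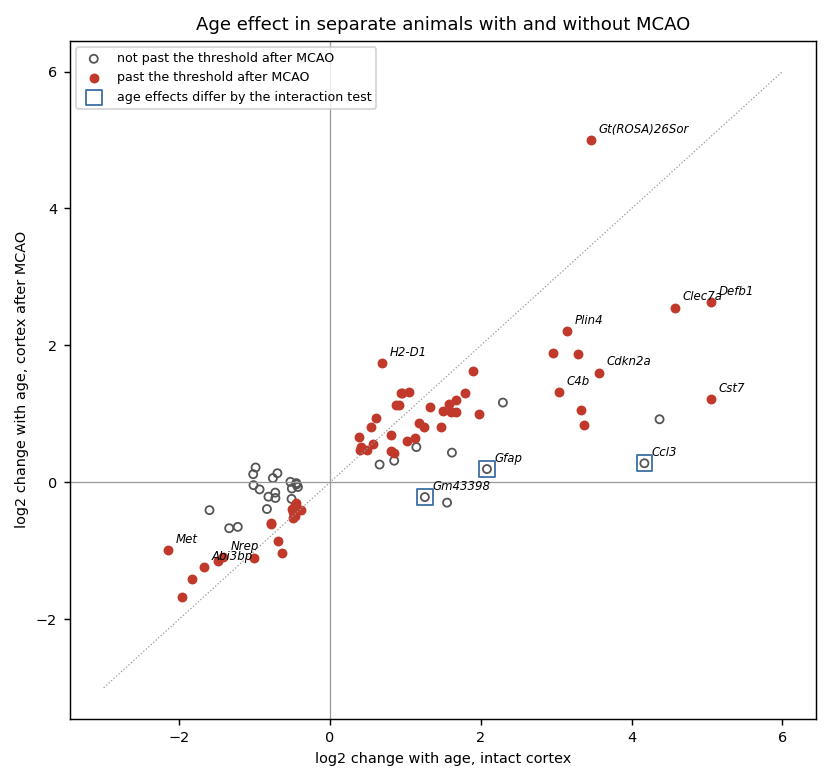
Log2 change from 3 to 18 months of the 88 genes in intact cortex (x axis) and in the animals after MCAO (y axis), with filled points for the 59 genes called in the same direction after MCAO. Squares mark Gfap, Ccl3 and Gm43398, whose age effects differ by the interaction test, and the dotted line marks equal change.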

How the data were processed

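Gene counts were deposited by the authors as raw whole numbers per library; per the submitters' processing notes they used Trimmomatic, HTSeq and DESeq2 with GRCm38. Which aligner was used is not given in the sources used here, nor is the annotation. Per the labels' protocols, 400 ng of DNase-treated RNA entered a QuantSeq 3′ FWD preparation. Spike-in rows (4.43% to 8.25% of control counts) and the 5 summary lines were left out; reads outside genes were 27.7% to 33.1%. The 24 libraries were fitted in edgeR 4.0.16 (R 4.3.3; TMM, filterByExpr, robust quasi-likelihood, 4 group means) on 14599 of 46983 genes, with Benjamini-Hochberg adjustment and a threshold of 0.05; the fit was tested on simulated data. CPM values are TMM-scaled, and an SE is the log2 change divided by the root of F. Alternatives used DESeq2 1.42.0, limma 3.58.1, other scalings, filters and left-out libraries. Intervals on read ratios cover counting error only. Within-group pairs of libraries differed beyond sampling noise (chi-square per degree of freedom 3.19 to 21.2 over 30 pairs). Labels name animals by letter without saying more, so p-values weigh a difference against the spread between these samples. In the main fit that spread was estimated from all 24 libraries, those after MCAO included. Gene lists and members were chosen with earlier results of these data known. Genes were named if called; values are given for the 12 largest changes in each direction with at least 5 CPM in a group, leaving out predicted genes, and for called list members. Gene positions come from GENCODE M21, promoters from RefSeq (GRCm38.p6).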

Additional observations from a re-analysis of the deposited data

Results flagged for a closer look

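In 178 groups of 6 values examined, a sample stood apart by Dixon's test in 23, where chance gives about 1 in 20 groups; values are the gap to the nearest sample as a share of the group's range. Aged animal D was far above the other aged animals for Spp1 (0.787), Clec7a (0.713), Lyz2 (0.697), Cst7 (0.670) and Itgax (0.648). Aged animal A was high for Xist (0.866) and Abca8a (0.668) and low for Cdkn2a (0.736) and Gda (0.686). Aged animal B was high for Mybpc3 (0.677) and Gm43398 (0.661), aged F was high for Gm13306 (0.729) and aged C was low for Casp1 (0.706).

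Young animal D stood apart in the summed choroid plexus markers (0.990) and was high for Usp43 (0.838) and Tubb2a (0.730). Young F was high for Endod1 (0.853), young C for Ptpro (0.719) and Aldh1b1 (0.654), young E for Ermn (0.665), and young B was low for Il33 (0.685). Ccl3 in young A and Defb1 in young F (1.000 each) rest on 1 read in 1 of 6 libraries.

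The age difference in intact cortex and after MCAO differed by the interaction test for Ccl3 (-3.89 log2 units, after MCAO minus intact), Gfap (-1.89) and Gm43398 (-1.47). What sets these samples or settings apart was not tested.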

How the results depend on the processing

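All 88 genes kept their direction under every alternative run in which they could be tested. Across the single-library omissions 1787 gene results stayed past the threshold and 322 did not, and across the other alternatives 737 did and 121 did not; 43 genes passed in all 24 omissions. The count of 88 became 39 with spike-in scaling, 177 with DESeq2, 226 with control libraries alone (226 includes 150 genes not among the 88) and, chosen after seeing the data, 246 with control libraries alone on the genes tested in all 24; it ranged from 51 (without aged D) to 137 (without MCAO animal A of 3 months) when single libraries were left out. The MCAO count of 1593 became 671 with spike-in scaling and ranged from 951 to 1811. The interaction count of 12 became 3 with spike-in scaling and 117 with DESeq2, and ranged from 1 to 68. The cause of these shifts was not tested. Letters do not pair the animals one to one. Same-letter deviations of the control groups correlated at -0.154 to 0.0890, and 1 of 6 letters correlated best with its own number. That check cannot see blocks of letters, and libraries A to C differed from D to F. In every group each A to C library had a lower share of reads outside genes than any D to F library. In controls of both ages the spike-in share was higher in A to C without overlap (18 months, 6.96% to 7.97% against 4.43% to 5.74%). After MCAO the spike-in shares overlapped. Whether this split bears on the spike-in scaling was not tested. A replicate block gave 98 intact, 1744 MCAO and 16 interaction calls, and 131 with control libraries alone, a fit added after seeing the data. Depth limits genes under about 1 CPM, most of all Ccl3, Defb1, Itgax and St14, for which the young group held 1 to 3 reads in all.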

Other observations

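The fit to the control libraries alone called 150 genes beyond the 88, of which 5 are given here as examples chosen after their values were seen. Etnppl, an enzyme of astrocytes that breaks down phosphoethanolamine, lay at 6.13 to 23.5 CPM in young and 28.8 to 43.7 CPM in aged animals (log2 change 1.45, edgeR adjusted p = 0.00273 in that fit, 0.138 with all 24 libraries). Gatm, the first enzyme of creatine synthesis, lay at 27.0 to 42.9 and 39.1 to 71.2 CPM (0.72, edgeR adjusted p = 0.00906, against 0.316). Stat3, a transcription factor of cytokine signalling, lay at 89.8 to 117 and 123 to 142 CPM without overlap (0.40, edgeR adjusted p = 0.00991, against 0.359).

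The muscarinic receptor gene Chrm3 lay at 361 to 528 CPM in young and 253 to 326 CPM in aged animals, without overlap (-0.46, edgeR adjusted p = 0.0112, against 0.359 with all libraries). The calcium-dependent kinase gene Camk4 lay at 376 to 498 and 294 to 382 CPM, with the groups overlapping (-0.36, edgeR adjusted p = 0.0245, against 0.283). None of these 5 was called when the libraries after MCAO entered the fit.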
